A study of Mus musculus with 12 samples.

Results

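The genes of cholesterol and fatty acid synthesis were followed in cultured mouse endothelial cells exposed to tumour necrosis factor (TNF) in 2 forms. The set was a fixed list of 33 genes. It held 23 sterol genes (18 enzymes of the mevalonate and sterol route and 5 genes of sterol sensing and transport) and 10 fatty acid genes. Of these, 32 had a probe set assigned to that gene alone, and all 32 passed the filter on low signals. They are 32 of 10269 genes tested. Acat2, which joins acetyl units at the entry to the route, was not analysed here. The 32 genes were covered by 74 probe sets, and each gene was read from the probe set with the highest mean on the log2 scale.

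The mevalonate route turns acetyl-CoA into isoprenoid units, joins these into squalene, and folds squalene into lanosterol, which a further chain of enzymes converts to cholesterol. Fatty acid synthesis starts from the same acetyl-CoA, builds palmitate, and then lengthens and desaturates it. Both branches are known targets of the SREBP transcription factors (genes Srebf1 and Srebf2), which are held in the endoplasmic reticulum by Insig and Scap proteins when sterols are plentiful and released for cleavage when sterols run low. In endothelial cells cholesterol sets the make-up of the surface domains in which receptors and caveolae sit.

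Per the labels, all 12 samples were cultured endothelial cells of newborn wild-type mice, in 3 groups of 4. The control cells were mock-transfected. The tmTNF cells carried, by stable transfection, a mutant of murine TNF that stays in the membrane because it cannot be cleaved, for constant exposure. The soluble TNF cells received TNF at 20 ng/ml for 4 h. The promoter of the transgene, the number of clones and whether the soluble TNF cells had been mock-transfected are not given in the sources used here. Nor is it stated whether replicates were separate cultures or animals, so each p-value measures only how these samples scatter, and that scatter may be technical. About 5 ug of total RNA went onto each array.

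The signal is the deposited background-corrected brightness of a probe set, on a linear scale, with every array brought to one trimmed mean of 500. A signal of 100 was reached by 17652 to 19174 probe sets on an array, and the number of arrays limits the precision. The cultures were not uniform. All 12 endothelial markers on the list were detected on at least some arrays, but their mean on the log2(signal + 16) scale was 9.11 on control array 3, 10.12 on tmTNF array 4 and 10.25 on tmTNF array 2, against 10.32 to 12.59 on the other 9 arrays. On these same 3 arrays the mesothelial and epithelial marker Krt19 lay between 5564 and 11494, while on the other 9 it lay between 65.4 and 3244. Msln, of the same list, read 3412 on control array 3, 2460 and 1289 on tmTNF arrays 2 and 4, and 1578 on soluble TNF array 4. The list's Krt5, Krt14, Krt18, Cdh1, Upk3b and Wt1 stayed under 100 on all 12 arrays, and Krt8 reached 112.7 and Epcam 201.7 at most. Of 8 leukocyte markers Ptprc, Adgre1, Itgam, Cd3e and Cd79a stayed under 100 on all 12 arrays, and Csf1r ran from 69.4 to 183.5. Cd68 read 18210.0 on control array 1 and 6728 and 4295 on tmTNF arrays 1 and 3, where Cd14 read 452 and 377. Cd14 read 5129 and 4763 on tmTNF arrays 2 and 4, where Cd68 read 723 and 63.3, so the high marker differed between these arrays. The summed leukocyte list ran from 4982 to 7527 in tmTNF cells, 571 to 1072 after soluble TNF and 810 to 18828 in controls, so it separated tmTNF from soluble TNF too. The adipocyte markers Adipoq, Lep and Cidec stayed under 100, while Fabp4, which endothelium also expresses, ran from 181 to 32975. The summed fibroblast and mural list ran from 440 to 10246 in controls, 443 to 8735 in tmTNF cells and 1497 to 9817 after soluble TNF. Its high marker differed too: Col3a1 read 4547 on control array 3, where Dcn read 27.7. Dcn read 7271 on tmTNF array 4, where Col3a1 read 55.9. Of this list Lum, Thy1, Des and Postn stayed under 100 on all 12 arrays. The part of these cells in the following results was not tested. The Y-linked genes Eif2s3y, Kdm5d and Uty were at 218.8 or more on the 4 tmTNF arrays and at 39.5 or less on the other 8, so the origin of the cells and the tmTNF transgene cannot be told apart. In such bulk RNA, fewer cells of a type and less RNA per cell cannot be told apart either.

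Promoters are shown for 6 members on which the following values turn, to let the DNA in front of a sterol gene be set beside that of a fatty acid gene. Each run is the 250 bases before the gene start, 5′ to 3′ along the gene, from RefSeq on build GRCm38.p6. Capitals mark the CCAAT box (CCAAT, or ATTGG where it lies on the other strand), which NF-Y binds, and the sterol response element TCACNCCAC, searched on both strands. Lss (chr10:76531355-76531604, plus strand) and Msmo1 (chr8:64733579-64733828, minus strand) had their highest signals in tmTNF cells. Insig1 (chr5:28071162-28071411, plus strand) had its lowest group mean after soluble TNF, and Idi1 (chr13:8885356-8885605, plus strand) had its highest group mean there. Hmgcs1 (chr13:119690101-119690350, plus strand) held the only match to TCACNCCAC among the members. Elovl6 (chr3:129532136-129532385, plus strand) is the fatty acid gene with an unadjusted p under 0.05 against control in both TNF groups.
Lss: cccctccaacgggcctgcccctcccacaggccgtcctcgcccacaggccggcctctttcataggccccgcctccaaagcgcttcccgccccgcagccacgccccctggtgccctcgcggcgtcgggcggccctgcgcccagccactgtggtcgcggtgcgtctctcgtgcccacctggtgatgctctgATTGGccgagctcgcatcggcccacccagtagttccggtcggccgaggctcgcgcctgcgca
Msmo1: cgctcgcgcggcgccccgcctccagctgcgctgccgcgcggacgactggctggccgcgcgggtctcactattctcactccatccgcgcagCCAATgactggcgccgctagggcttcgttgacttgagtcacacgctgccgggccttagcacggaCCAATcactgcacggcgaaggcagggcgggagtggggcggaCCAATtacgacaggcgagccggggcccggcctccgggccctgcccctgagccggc
Insig1: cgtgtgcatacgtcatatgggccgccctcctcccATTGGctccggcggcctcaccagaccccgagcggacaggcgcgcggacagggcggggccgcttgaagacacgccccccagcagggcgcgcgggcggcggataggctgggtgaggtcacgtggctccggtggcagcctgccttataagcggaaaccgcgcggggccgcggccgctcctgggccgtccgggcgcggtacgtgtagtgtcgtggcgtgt
Idi1: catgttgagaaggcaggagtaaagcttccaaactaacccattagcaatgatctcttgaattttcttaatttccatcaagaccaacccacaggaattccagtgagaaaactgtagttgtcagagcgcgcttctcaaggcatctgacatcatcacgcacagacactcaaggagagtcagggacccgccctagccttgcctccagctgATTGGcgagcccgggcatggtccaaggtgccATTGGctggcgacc
Hmgcs1: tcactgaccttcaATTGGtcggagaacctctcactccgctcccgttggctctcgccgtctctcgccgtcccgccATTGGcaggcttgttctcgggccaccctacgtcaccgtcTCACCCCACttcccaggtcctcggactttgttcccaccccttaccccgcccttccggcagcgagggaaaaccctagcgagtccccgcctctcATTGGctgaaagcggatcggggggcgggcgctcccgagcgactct
Elovl6: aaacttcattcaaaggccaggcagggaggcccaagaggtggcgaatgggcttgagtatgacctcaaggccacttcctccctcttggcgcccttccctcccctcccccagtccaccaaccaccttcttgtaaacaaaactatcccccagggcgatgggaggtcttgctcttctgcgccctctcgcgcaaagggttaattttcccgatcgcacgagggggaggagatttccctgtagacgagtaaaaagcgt
Lss and Insig1 each have 1 CCAAT box in this window, Idi1 has 2, and Msmo1 and Hmgcs1 have 3. Elovl6 has neither motif. In Lss the box starts 62 bases before the gene start, in Msmo1 55 and in Hmgcs1 45, counted for the copy nearest the start. In Insig1 it starts 216 bases before and in Idi1 14.

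Promoters were listed for 26 of the 33 members, with 33 promoters in all; Fdps, Fdft1, Sqle, Stard4, Scd1, Scd2 and Fads1 had no entry. A CCAAT box lay in at least 1 promoter of 17 of 19 sterol members, all but Acat2 and Scap. Among the fatty acid members it lay in 3 of 7, namely Fasn, Acss2 and Me1. One was held by 33.8% of all 32851 promoters listed, against 72% of the sterol members' 25 promoters and 37.5% of the fatty acid members' 8. The GC box GGGCGG was present in 80% of the sterol members' promoters, 50% of the fatty acid members' and 32.7% of all. The E-box CACGTG was present in 5 of 25, 0 of 8 and 6.02%. The element TCACNCCAC was present in 1 of 25, 0 of 8 and 1.05%. A match describes these letters and no more.

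No member passed the threshold (limma adjusted p under 0.05 over all genes) in any of the 3 comparisons. Over all 10269 genes that share was 0.195% for tmTNF against control, 0.039% for soluble TNF against control and 1.22% for tmTNF against soluble TNF. The member nearest the threshold was Lss, the cyclase that makes lanosterol, which was 3.81-fold above the soluble TNF group in tmTNF cells with a limma adjusted p of 0.0592. At an unadjusted p under 0.05, tmTNF against control gave 4 members, all higher (Lss, Mvd, Elovl6 and Fasn), where the background was 7.56% of genes. Soluble TNF against control gave 2 higher (Idi1 and Elovl6) and 1 lower (Fads1), with a background of 12.7%. The comparison of tmTNF with soluble TNF gave 6 higher (Lss, Msmo1, Sc5d, Mvd, Srebf1 and Insig1) and 1 lower (Acly), with a background of 19.9%. As shares of 32 members, the first count lies above its background and the second below, while the third lies close to its own. No test was made of these counts, each of which rests on few genes.

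On the probe sets used, groups did not overlap for 2 members between tmTNF and control (Lss and Srebf2), for 0 between soluble TNF and control, and for 5 between tmTNF and soluble TNF (Lss, Msmo1, Sc5d and Insig1 higher, Acly lower). The backgrounds over all genes were 3.17%, 8.11% and 16.1%. All comparisons share arrays, and the first and second share the control arrays, so their values are given side by side and not as separate support.

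**Figure D1:**
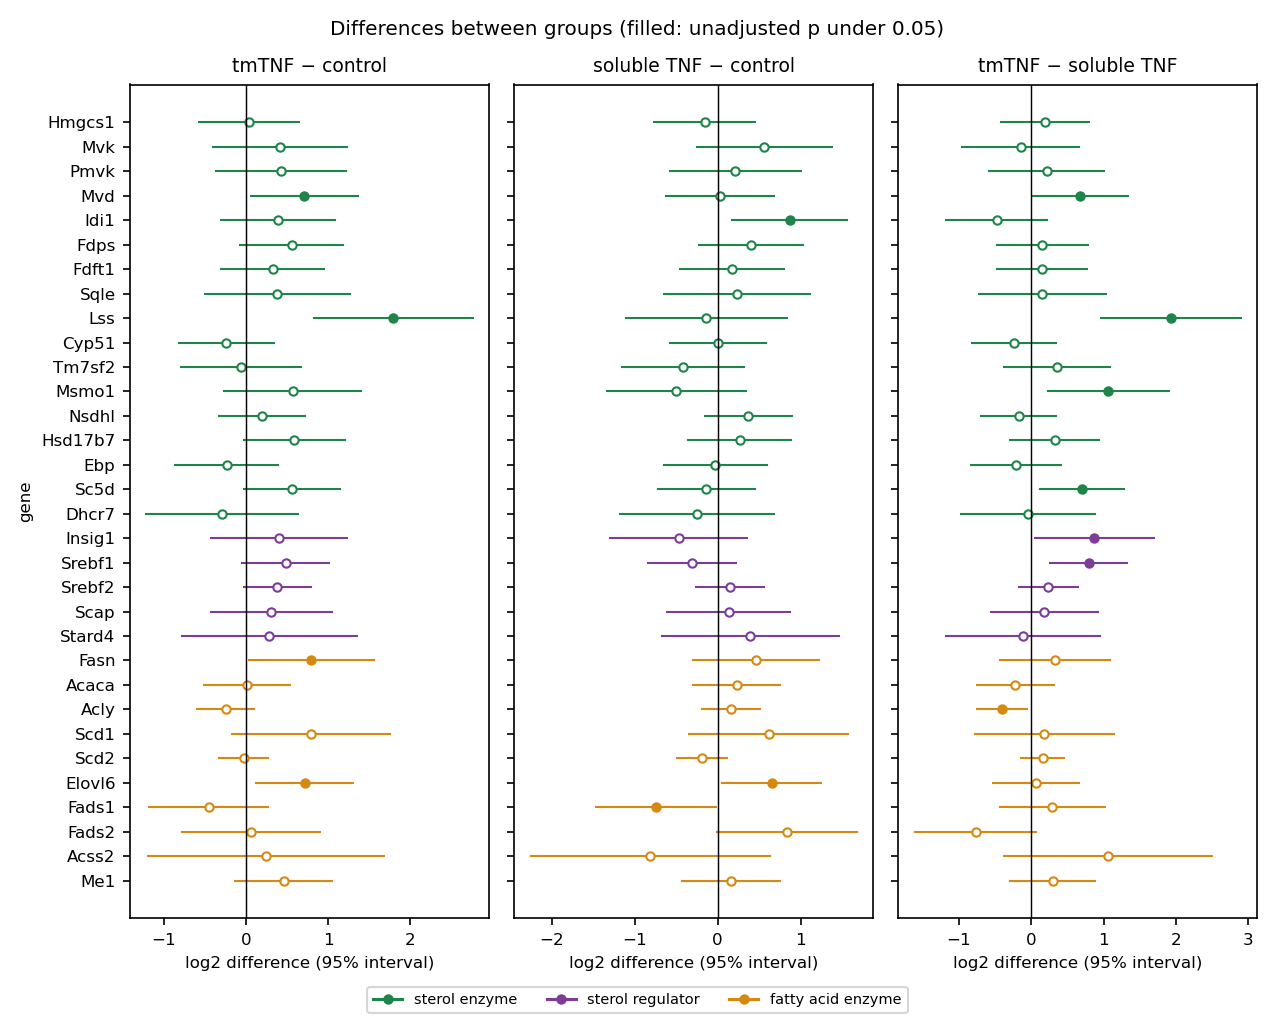
Log2 difference of each of the 32 members (vertical axis) in the 3 comparisons, on the log2(signal + 16) scale, with its 95% interval from limma; filled points have an unadjusted p under 0.05. Lss lies farthest to the right in both comparisons with tmTNF, and most other intervals include 0.

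Described as groups, most of the 22 sterol members and most of the 10 fatty acid members had means above control in tmTNF cells. The median log2 difference of the sterol members from control was 0.39 in tmTNF cells, with 18 of 22 above 0, and 0.08 after soluble TNF, with 13 of 22 above 0. For the 10 fatty acid members it was 0.16 in tmTNF cells and 0.20 after soluble TNF, with 7 of 10 above 0 in each. Over all genes the medians were 0.03 and -0.05, with 53.2% and 45.8% above 0. Between tmTNF and soluble TNF the medians were 0.18 for sterol members (15 of 22 above 0), 0.17 for fatty acid members (7 of 10 above 0) and 0.08 for all genes (55.9% above 0). These medians carry no test. When all arrays were given one median instead of one trimmed mean, the difference of tmTNF from soluble TNF turned to -0.05 for sterol and -0.07 for fatty acid members, with the median of all genes at -0.15; against control the tmTNF medians were then 0.24 and 0.02, with all genes at -0.12. With the mean of a gene's probe sets the medians of tmTNF against control were 0.31 for sterol and 0.49 for fatty acid members, so that their order turned. Without tmTNF array 4 the fatty acid median against control was -0.01, and without control array 2 it was 0.03 while the sterol median was 0.57. Without control array 1 the medians of tmTNF against control were 0.23 (sterol) and 0.24 (fatty acid), and without control array 4 the sterol median of soluble TNF was -0.02. Without the 3 arrays lowest in endothelial markers, tmTNF against control gave 0.33 for sterol and 0.02 for fatty acid members.

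Array by array, the median deviation of the sterol members from each gene's mean was 0.18, 0.10, 0.37 and 0.30 on tmTNF arrays 1 to 4. It was -0.11, -0.05, 0.05 and -0.23 on the soluble TNF arrays and -0.37, 0.22, -0.20 and -0.30 on the control arrays. On this scaling the tmTNF and soluble TNF arrays did not overlap, and among the controls array 2 lay within the tmTNF range. Over all genes this median ran from 0.03 to 0.09 in the tmTNF group and from -0.07 to 0.02 in the soluble TNF group, which did not overlap either. On the tmTNF arrays the fatty acid members gave 0.15, 0.34, -0.20 and 0.31, the soluble TNF arrays 0.20, -0.09, -0.11 and 0.17, and the controls -0.27, -0.22, 0.18 and 0.00. All 3 groups overlapped. The fatty acid members were at their highest on tmTNF arrays 2 and 4, the tmTNF arrays with low endothelial markers, and among the controls on array 3, which had the lowest; soluble TNF arrays 1 and 4, the highest of their group, are also its lowest in those markers. The part of the cell mixture in this was not tested.

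**Figure D2:**
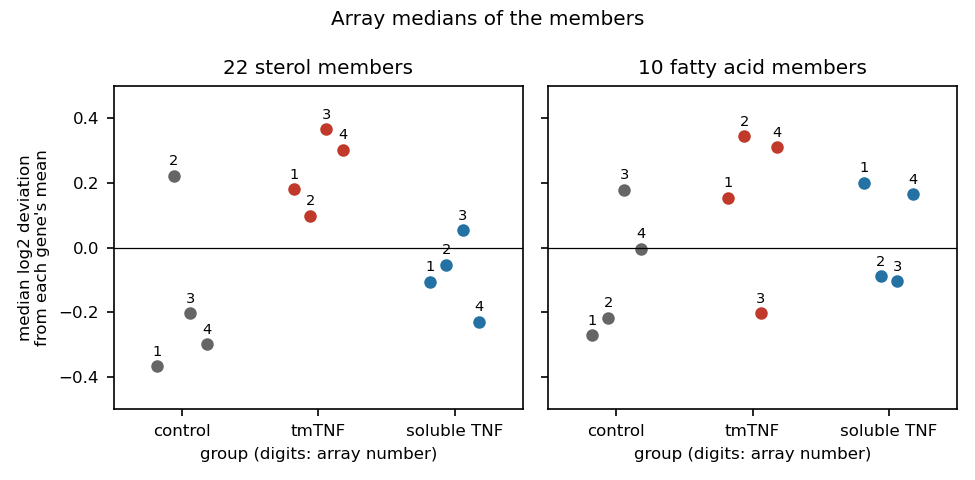
Median log2 deviation of the 22 sterol members (left) and 10 fatty acid members (right) from each gene's mean over 12 arrays, 1 point per array, with array numbers beside the points. The sterol medians of the 4 tmTNF arrays run from 0.10 to 0.37 and on this scaling lie above those of all soluble TNF arrays (the group median turns to -0.05 with arrays at one median), while the fatty acid medians overlap.

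**Figure D3:**
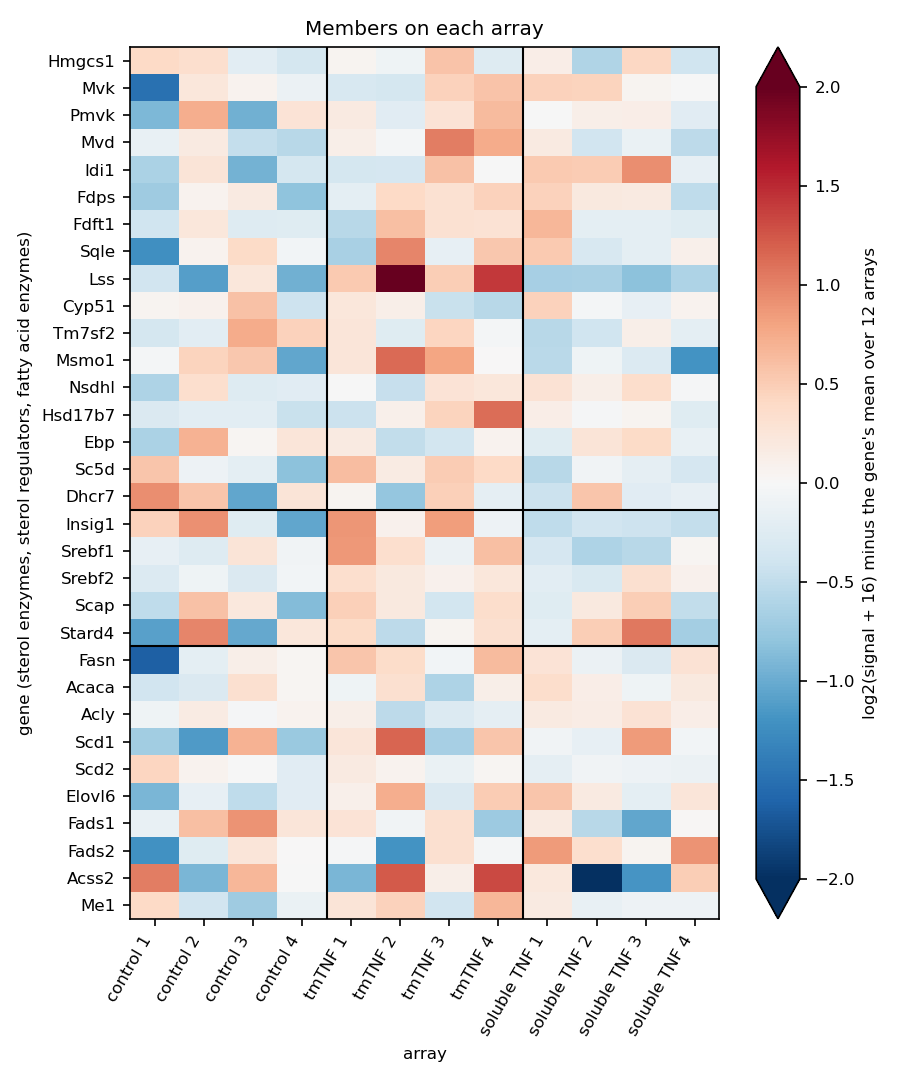
Deviation of log2(signal + 16) of each member (rows, by role) from its mean over the 12 arrays (columns); red is above and blue below the mean, and values beyond 2 share the end colours. Lss is darkest red on tmTNF array 2 and Acss2 darkest blue on soluble TNF array 2.

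Among the mevalonate enzymes the values of 2 members turned on opposite groups. In the following, 4 values in a row are the signals of arrays 1 to 4 of a group. Mvd, which decarboxylates mevalonate diphosphate to the first isoprenoid unit, read 239, 214, 463 and 378 in tmTNF cells, 196, 251, 154 and 144 in controls, and 249, 164, 198 and 148 after soluble TNF. Arrays 3 and 4 of tmTNF stood above all others, and arrays 1 and 2 lay within the range of the remaining groups. The log2 difference from control was 0.71 ± 0.30 (SE) in tmTNF cells (limma adjusted p = 0.623) and 0.03 ± 0.30 after soluble TNF. The second Mvd probe set gave 0.33 and -0.11.

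Idi1, the isomerase that makes the reactive isoprenoid unit, read 1463, 1438, 1943 and 905 after soluble TNF and 644, 1217, 518 and 788 in controls. It read 787, 797, 1521 and 1005 in tmTNF cells. Soluble TNF arrays 1 to 3 lay above every control, and array 4 lay within the control range. The log2 difference of soluble TNF from control was 0.87 ± 0.32 (limma adjusted p = 0.325), the largest of any member in that comparison. The second Idi1 probe set gave 0.89 ± 0.37. Against soluble TNF, tmTNF cells were at -0.48, with a 95% interval of -1.18 to 0.22.

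The other early enzymes showed smaller or more uneven differences. Hmgcs1, which makes the substrate of the rate-setting reductase, spanned 1687 to 3843 over the 12 arrays, and its log2 difference from control was 0.03 (95% interval -0.58 to 0.64) in tmTNF cells and -0.16 (-0.77 to 0.45) after soluble TNF. The kinases Mvk and Pmvk spanned 124 to 568 and 175 to 601, and their means were above control in both TNF groups, by 0.42 and 0.43 in tmTNF cells and by 0.56 and 0.22 after soluble TNF. Fdps, which joins isoprenoid units to farnesyl diphosphate, spanned 1160.2 to 2822 and differed from control by 0.56 ± 0.29 and 0.40 ± 0.29. Fdft1, the squalene synthase, and Sqle, the squalene epoxidase, were 0.33 and 0.38 above control in tmTNF cells and 0.18 and 0.23 above it after soluble TNF. None of these passed the threshold, and every one of these intervals includes 0.

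Lss stood apart in tmTNF cells. The 4 tmTNF arrays read 309.7, 1313, 303 and 592, the controls 159, 90.1, 249.8 and 101, and the soluble TNF arrays 128, 129, 113 and 132. Every tmTNF array lay above every other array, while the soluble TNF arrays lay inside the control range. The mean signal was 629 ± 475 (SD, n = 4) in tmTNF cells, 149.9 ± 73.1 (SD, n = 4) in controls and 125 ± 8.70 (SD, n = 4) after soluble TNF. On the log2 scale tmTNF was 1.80 ± 0.44 above control (limma adjusted p = 0.184) and 1.93 ± 0.44 above soluble TNF (limma adjusted p = 0.0592).

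The 2 highest Lss arrays, tmTNF 2 and 4, are both low in endothelial markers, and control array 3, the lowest in those markers, was the highest control. Soluble TNF array 1, at a marker mean of 10.32 only just above theirs, read 128. On tmTNF arrays 1 and 3, whose endothelial marker means were 12.10 and 12.59, Lss was above every control array on the probe set used; on the second probe set these arrays, at 50.9 and 109, lay below control array 3 at 223. The part of the cell mixture in the Lss result was not tested. Without control array 3 and tmTNF arrays 2 and 4, Lss was 1.31 ± 0.34 above control (limma adjusted p = 0.518) and 1.19 ± 0.32 above soluble TNF (limma adjusted p = 0.0918). A second probe set, above 100 on 4 arrays only, gave 1.15 ± 0.69 and 1.38 ± 0.69.

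**Figure D4:**
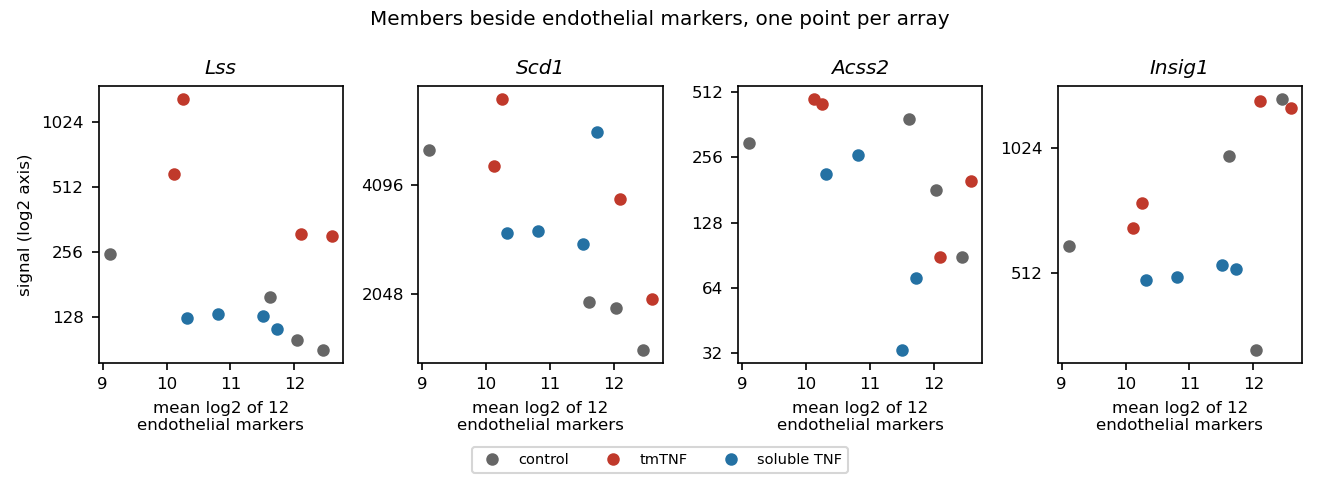
Signal of Lss, Scd1, Acss2 and Insig1 (log2 axis) against the mean log2(signal + 16) of the 12 endothelial markers, 1 point per array, coloured by group. The highest Lss and Scd1 points are tmTNF array 2, at a marker mean of 10.25, and the soluble TNF points of Lss lie between 113 and 132 across the marker range.

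Downstream of lanosterol, the tmTNF and soluble TNF arrays did not overlap for Msmo1 and Sc5d. Msmo1, the C4-methylsterol oxidase, read 1677, 3131, 2465 and 1421 in tmTNF cells and 969, 1331, 1169 and 611 after soluble TNF, with controls at 1374, 1932, 2068 and 677. The tmTNF arrays all lay above the soluble TNF arrays, and the controls spread across both. The log2 difference of tmTNF from soluble TNF was 1.07 ± 0.38 (limma adjusted p = 0.162), made up of 0.57 above control and -0.50 for soluble TNF against control.

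Sc5d, the lathosterol desaturase, read 784, 566, 719 and 671 in tmTNF cells and 339, 478, 444 and 397 after soluble TNF. Its controls were 744, 469, 435 and 277. Groups with TNF did not overlap, and control array 1 lay among the tmTNF arrays. The difference between tmTNF and soluble TNF was 0.70 ± 0.27 (limma adjusted p = 0.181), and a second probe set gave 0.35 ± 0.34. For tmTNF against control the probe sets opposed each other in sign, at 0.57 and -0.23.

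The remaining late enzymes had intervals that include 0 in all comparisons on the probe sets used. Hsd17b7, a sterol ketone reductase, was 0.59 ± 0.28 above control in tmTNF cells, led by array 4 at 918 within a whole range of 303 to 918. A second Hsd17b7 probe set read 246, 252, 298 and 371 in tmTNF cells and 132, 158, 243 and 193 after soluble TNF, without overlap, and gave 0.65 ± 0.26 between them (limma adjusted p = 0.209) and 0.61 ± 0.26 against control. Nsdhl, which removes the C4 carboxyl group, was 0.20 above control in tmTNF cells and 0.37 after soluble TNF. Cyp51, the lanosterol demethylase, and Ebp, the sterol isomerase, were at -0.24 and -0.24 in tmTNF cells and at 0.00 and -0.02 after soluble TNF. Tm7sf2, a sterol reductase, was dim, at 62.8 to 176, with a difference of -0.41 (95% interval -1.15 to 0.32) after soluble TNF.

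Dhcr7, which makes the last reduction to cholesterol, had the lowest difference of tmTNF from control among the sterol enzymes. It read 229, 122, 314 and 192 in tmTNF cells, 436, 331, 99.2 and 267 in controls, and 159, 330.2, 186 and 195 after soluble TNF. The groups overlapped, and the difference of tmTNF from control was -0.29 with a 95% interval of -1.21 to 0.64.

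On the probe sets used, all 5 genes of sterol sensing and transport had means above control in tmTNF cells, between 0.28 and 0.48 on the log2 scale. None passed the threshold. After soluble TNF, 3 of the 5 were above control. Srebf1, the SREBP gene tied most closely to fatty acid synthesis, read 2091, 1439.6, 1047 and 1736 in tmTNF cells, 1014, 947, 1353 and 1082 in controls, and 894, 730.2, 771 and 1167 after soluble TNF. Arrays 1, 2 and 4 of tmTNF were above all others, and tmTNF array 3 lay within the control range and below soluble TNF array 4. The difference between tmTNF and soluble TNF was 0.79 ± 0.24 (limma adjusted p = 0.12), and the difference of tmTNF from control was 0.48 ± 0.24.

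Srebf2, the SREBP gene tied most closely to cholesterol synthesis, read 922, 834, 771 and 855 in tmTNF cells and 598, 684, 594 and 704 in controls. After soluble TNF it read 624, 588, 919 and 771. The tmTNF arrays did not overlap the controls, and the soluble TNF arrays covered both. The mean signals were 845 ± 62.4 and 645 ± 57.1 (SD, n = 4 each), a log2 difference of 0.38 ± 0.19 (limma adjusted p = 0.691). A second probe set gave 0.44 ± 0.29, but on it these groups overlapped. There the tmTNF arrays read 519.6, 951, 630 and 882 and the controls 774.5, 430, 667.5 and 353.

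Insig1, the retention factor whose own gene is a sterol-responsive SREBP target, read 1322, 753, 1273 and 658 in tmTNF cells and 495, 538, 524 and 502 after soluble TNF. Controls read 979.6, 1340.4, 595 and 336. The soluble TNF arrays were tightly grouped below every tmTNF array, and the controls ran from below to above both groups. The difference between tmTNF and soluble TNF was 0.87 ± 0.38 (limma adjusted p = 0.229), and soluble TNF was at -0.47 against control with a 95% interval of -1.29 to 0.36. Without the 3 arrays lowest in endothelial markers the first of these was 1.31 ± 0.45 (limma adjusted p = 0.148).

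Scap, the SREBP escort, spanned 604 to 1684 and was 0.31 and 0.13 above control. Stard4, a carrier of cholesterol between membranes, read 1001, 529.5, 793 and 959.9 in tmTNF cells, 666, 1084, 1605 and 473 after soluble TNF, and 352, 1524, 368 and 903 in controls. Its groups overlapped throughout. It was 0.28 ± 0.49 above control in tmTNF cells and 0.39 ± 0.49 after soluble TNF. Further Stard4 probe sets gave -0.01 and 0.09 in tmTNF cells and 0.15 and 0.32 after soluble TNF.

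**Figure D5:**
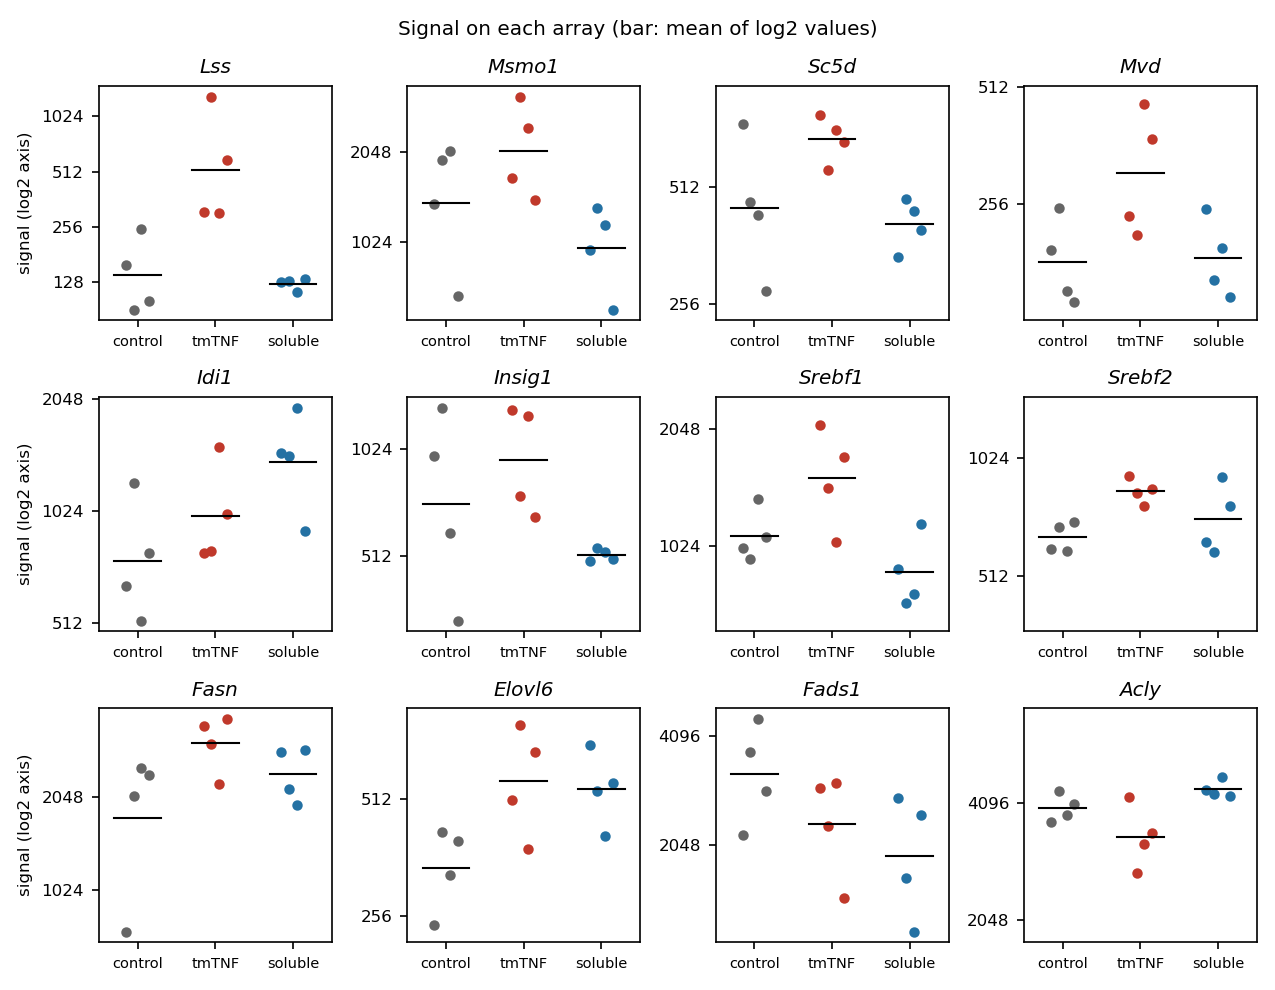
Signal of 12 members on each array (log2 axis, panels with their own scale), by group, with the mean of log2 values as a bar. In Lss all 4 tmTNF points lie above the rest, in Insig1 the soluble TNF points sit between 495 and 538, and in Acly the soluble TNF points lie above the tmTNF points.

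The fatty acid enzymes differed among themselves. Fasn, the synthase that builds palmitate, read 3483, 3057, 2271 and 3680.4 in tmTNF cells, 753, 2061, 2549.5 and 2420.0 in controls, and 2866, 2179, 1931 and 2905 after soluble TNF. Control array 1 lay far below every other array, and tmTNF array 3 lay below controls 3 and 4. The difference of tmTNF from control was 0.80 ± 0.35 (limma adjusted p = 0.633). Without control array 1 it was 0.39 (limma adjusted p = 0.601).

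Elovl6, which extends palmitate to stearate, was above control in both TNF groups. It read 509.5, 792, 382 and 678 in tmTNF cells, 703, 537, 411 and 562 after soluble TNF, and 243, 421, 327 and 399.6 in controls. In each TNF group 3 of 4 arrays lay above every control. The log2 differences from control were 0.72 ± 0.27 in tmTNF cells (limma adjusted p = 0.563) and 0.65 ± 0.27 after soluble TNF (limma adjusted p = 0.368), against the same control arrays. Between tmTNF and soluble TNF the difference was 0.06, with a 95% interval of -0.53 to 0.66. Without the 3 arrays lowest in endothelial markers the values were 0.34 and 0.63.

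The desaturases divided. Scd1, the stearoyl-CoA desaturase, read 3729, 7085, 1981 and 4613 in tmTNF cells, 3009, 2813, 5713 and 3044 after soluble TNF, and 1943, 1429, 5094 and 1872 in controls. Its highest control was array 3, and tmTNF arrays 2 and 4 were its highest tmTNF arrays; these 3 are the arrays lowest in endothelial markers. Its differences from control were 0.79 ± 0.44 and 0.61 ± 0.44, and the groups overlapped. Without those 3 arrays soluble TNF was 1.00 ± 0.31 above control (limma adjusted p = 0.214). Scd2, a second stearoyl-CoA desaturase, ran from 11040.4 to 17459 and differed from control by -0.03 (95% interval -0.33 to 0.27) in tmTNF cells and -0.18 (-0.49 to 0.12) after soluble TNF. Its probe sets disagreed: one that ran from 466 to 2401 gave 0.84 ± 0.43 and 0.81 ± 0.43 (limma adjusted p = 0.721 and 0.452), and another gave -0.12 and -0.36.

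Fads1 and Fads2, the desaturases that act on polyunsaturated fatty acids, gave opposite signs after soluble TNF. Fads1 read 2770.2, 1662, 1183 and 2478 after soluble TNF, 2192, 3706, 4579.7 and 2901 in controls, and 2949, 2321, 3044 and 1464 in tmTNF cells. Soluble TNF arrays 2 and 3 lay below every control and the others within their range. The difference of soluble TNF from control was -0.74 ± 0.33 (limma adjusted p = 0.389).

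Fads2 read 707, 491, 404 and 736 after soluble TNF, 158, 325, 462 and 389 in controls, and 381, 160.2, 486 and 374 in tmTNF cells. On the probe set used, soluble TNF arrays 1, 2 and 4 lay above every other array. The difference of soluble TNF from control was 0.83 ± 0.39 (limma adjusted p = 0.403), and tmTNF was at -0.77 ± 0.39 against soluble TNF. The 2 lowest Fads2 arrays were control 1 and tmTNF 2. On a second probe set soluble TNF array 2, at 437, lay below control array 3 at 647 and tmTNF array 3 at 601. That probe set gave 0.75 ± 0.58 for soluble TNF against control. For tmTNF against control it gave -0.26, where the one used gave 0.06.

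Acly, which makes cytosolic acetyl-CoA from citrate, was the 1 member lower in tmTNF cells than after soluble TNF with no overlap. It read 4254, 2704, 3229 and 3434 in tmTNF cells, 4438, 4321, 4787 and 4266 after soluble TNF, and 3666, 4396, 3833 and 4083 in controls. The highest tmTNF array, array 1, lay just under the lowest soluble TNF array. The difference of tmTNF from soluble TNF was -0.40 ± 0.16 (limma adjusted p = 0.194), and further probe sets gave -0.50 ± 0.15 and -0.32 ± 0.18. Without the 3 arrays lowest in endothelial markers it was -0.26.

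Acss2, which makes acetyl-CoA from acetate, had the largest standard error of the members, 0.66 on the log2 scale. It read 89.1, 449.5, 198 and 478 in tmTNF cells, 215, 33, 71.3 and 262 after soluble TNF, and 385, 89.2, 299 and 180.3 in controls. All groups overlapped. The tmTNF arrays 2 and 4 and soluble TNF arrays 1 and 4, which were the highest of their groups, are also those with the lowest endothelial marker means in their groups; among the controls the highest was array 1, not array 3. The difference between tmTNF and soluble TNF was 1.06 ± 0.66 with a 95% interval of -0.38 to 2.50, and without the 3 arrays lowest in those markers it was 0.22. Acaca, the carboxylase that commits acetyl-CoA to fatty acids, spanned 478 to 952 and was 0.01 (95% interval -0.52 to 0.54) from control in tmTNF cells and 0.23 after soluble TNF. A dim second Acaca probe set, under 100 on all controls (40.6, 16.1, 25.8 and 45.9), read 50.3, 41.3, 110.0 and 193 in tmTNF cells and 61.5, 165, 108 and 88.6 after soluble TNF, all above the controls in the latter group. That probe set reached 100 on 4 arrays, all with TNF, and passed the filter only through them. Me1, the malic enzyme that supplies NADPH, spanned 1357 to 3555 and was 0.46 ± 0.27 above control in tmTNF cells and 0.16 ± 0.27 after soluble TNF.

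A further 4 lists placed these members in their pathway. Of the 13 genes kept for sterol efflux, uptake and oxysterols, 1 passed the threshold in 1 comparison, tmTNF against soluble TNF, where 1.22% of all genes did. Npc2, which hands cholesterol out of the lysosome, read 14268, 14054, 17359 and 17004 in tmTNF cells, 9054, 7450.4, 7409.9 and 12160 after soluble TNF, and 12335, 11977, 13103 and 9865 in controls. Every tmTNF array lay above every other array. The tmTNF cells were 0.82 ± 0.17 above soluble TNF (limma adjusted p = 0.0402, adjusted p from 0.0322 to 0.133 over 26 alternatives), and 0.41 ± 0.17 above control. Each fit chose the probe set again, and the value of 1.28 without soluble TNF array 4 does not come from the signals above. The call was lost without any 1 of tmTNF arrays 2, 3 or 4, soluble TNF arrays 1, 2 or 3, or control array 2 (limma adjusted p from 0.0524 to 0.133). It was also lost with arrays at one median (0.58, adjusted p = 0.108), without the 3 arrays lowest in endothelial markers (0.83, adjusted p = 0.0922), with no filter, with the mean of probe sets and without the intensity trend.

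Mylip, a ubiquitin ligase induced by oxysterol receptors that removes lipoprotein receptors, read 258, 250.1, 651 and 325 in tmTNF cells against 32.4, 91.9, 56.2 and 71.9 in controls. It read 78, 76.3, 213.6 and 67.8 after soluble TNF. All tmTNF arrays lay above all others. A signal of 100 was reached only on the 4 tmTNF arrays and on soluble TNF array 3. Mylip thus passed the filter on low signals only through the tmTNF group, so its separation was partly fixed by that filter. Every control was under a signal of 100, and with that signal as the floor the mean of tmTNF was 3.09-fold higher. That fold is an estimate and not a lower limit. The log2 difference of tmTNF from control was 2.24, with an interval of 1.31 to 3.17, and did not pass the threshold (limma adjusted p = 0.0674). Stard3, a late endosomal cholesterol carrier, and Nceh1, a cholesteryl ester hydrolase, were 0.78 ± 0.22 and 1.71 ± 0.49 above soluble TNF in tmTNF cells (limma adjusted p = 0.096 and 0.103), without overlap. Between tmTNF and soluble TNF, 5 of the 13 genes on this list had an unadjusted p under 0.05, all higher, with a background of 19.9%. Groups did not overlap for 6, of which 5 were higher, with a background of 16.1%. At that p, tmTNF against control gave 2 higher and 1 lower (background 7.56%), and soluble TNF against control 3 lower (background 12.7%). No test was made of these counts. The list's median was 0.41 for tmTNF and -0.21 for soluble TNF, each against control.

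The other 3 lists had 0 genes past the threshold with limma in all 3 comparisons. Of 10 genes for SREBP processing and the isoprenoid branch, 1 had an unadjusted p under 0.05 in any comparison, the farnesyltransferase subunit Fnta, at -0.50 ± 0.20 for tmTNF against soluble TNF. Insig2, the second retention factor, was at 0.56 ± 0.27 in that comparison, and its soluble TNF arrays (931, 1056, 985 and 1072) all lay below its tmTNF arrays (1196, 1943, 1428 and 1519). Of 19 genes for fatty acid elongation, activation and lipid assembly, 2 were higher at that level in tmTNF than after soluble TNF, namely the elongase Elovl1 (0.47 ± 0.20) and the dehydratase Hacd3 (0.37 ± 0.17), and Gpam, which starts glycerolipid assembly, was at -0.40 ± 0.17 for tmTNF against control. Of 14 fatty acid oxidation genes, 1 was lower at that level after soluble TNF than in controls, the receptor gene Pparg (-0.63 ± 0.27). The backgrounds of the unadjusted counts are 19.9% for tmTNF against soluble TNF, 12.7% for soluble TNF against control and 7.56% for tmTNF against control, and the counts of these 3 lists lie under them. The medians of these 3 lists against control lay between -0.17 and 0.04.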

How the data were processed

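RNA of 12 samples was hybridised to 1 Affymetrix mouse array each, 4 per group. The deposited values are signal intensities per probe set. The submitters' processing notes name MAS5; its version and settings are not given in the sources used here. Replicate numbers follow accession order and pair no samples.

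Of 45101 probe sets, the 64 control probe sets were left out, and arrays were scaled to a 2% trimmed mean of 500. Values were log2(signal + 16), so fold changes of dim genes are understated. Probe sets with 1 gene symbol and a signal of at least 100 on at least 4 arrays were kept (18022), 1 per gene by the highest mean, giving 10269 genes. One model of 3 groups was fitted with limma 3.58.1 in R 4.3.3 (lmFit, eBayes with an intensity trend, two-sided), and p-values were adjusted over all genes by Benjamini-Hochberg with a threshold of 0.05. Intervals are at 95%. The procedure was tested on simulated data. Members and lists were chosen with earlier results of these data known. Signals of every array are given for members with an unadjusted p under 0.05 or non-overlapping groups, and for the largest differences of each role; for each pathway list, up to 4 genes with the lowest unadjusted p were eligible. Alternatives were 13 other settings and leaving out each of 12 arrays in turn, and 1 more was chosen after seeing the data. Promoters came from RefSeq (GRCm38.p6), read with Python.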

Additional observations from a re-analysis of the deposited data

Results flagged for a closer look

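In 3 of 96 sets of 4 arrays (1 member in 1 group) a single array lay far from the other 3 by Dixon's gap criterion, a criterion that chance alone meets in about 1 of 20 sets. All 3 were in the soluble TNF group. Fdft1 read 2519 on soluble TNF array 1, the highest of its group, and Me1 read 2543 on the same array, which has the lowest endothelial marker mean of that group. Scd1 read 5713 on soluble TNF array 3, the highest of its group.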

How the results depend on the processing

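No paired analysis was possible because the labels carry no shared replicate numbers. With 4 arrays per group, limma called 0 members in tmTNF against control and in soluble TNF against control under every setting tried. For tmTNF against soluble TNF it called 3 members with array weights (Lss, Msmo1 and Sc5d, adjusted p = 0.00938, 0.0417 and 0.0431; 1176 of 10269 genes were called then) and 1 with only the groups compared (Lss, 0.0438; 475 of 9833 genes); the counts without 1 array ran from 0 to 1, with Lss called without tmTNF array 1. With arrays at one median, the tmTNF minus soluble TNF medians were -0.048 (sterol) and -0.067 (fatty acid), and the median of all genes lay at -0.149. The fatty acid median was 0.488 for tmTNF minus control with the mean of probe sets, and -0.141 for tmTNF minus soluble TNF without the 3 arrays lowest in endothelial markers, a setting chosen after seeing the data. The sterol median for tmTNF minus control ran from 0.225 to 0.568 without 1 array. For these the cause was not tested. Of the 14 values of members with an unadjusted p under 0.05, 0 turned sign over 26 alternatives, or 25 for both Mvd values, which had none with the filter at 250. These 14 were chosen by that p on the same arrays. A change of sign was therefore unlikely from the start, and its absence is no support for them. Of 2122 values of the remaining 82 pairs, 102 turned sign. Among 25 further probe sets of 19 members, 5, 5 and 1 opposed the one used in tmTNF minus control, soluble TNF minus control and tmTNF minus soluble TNF.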
